A study of Mus musculus with 2 samples.

Results

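Fibroblasts and pericytes of the mouse pituitary were picked out of a droplet RNA sequencing series by the transcripts they carried. The series profiled dispersed pituitary glands of male C57BL/6 mice aged 7 weeks, as 2 libraries that each came from a pool of 3 glands, with no treatment, no genetic change and no second group. All cells share the same preparation, a long digestion with collagenase and trypsin, and the labels name no sort. Transcripts were counted by unique molecular identifiers (UMIs), and a barcode stands for 1 droplet, which can hold more than 1 cell. Members were chosen by the measured UMIs of the genes named next, so the levels of these genes are a description. A barcode was a fibroblast if it held at least 5 summed UMIs of Col3a1, Dcn, Lum, Dpep1 and Tcf21. Failing that, it was a pericyte if it held at least 3 Rgs5 and at least 1 Pdgfrb UMI. Every member also had at least 250 genes, at most 20% mitochondrial UMIs, under 10% of UMIs from Gh, under 10% from Prl, under 5% from Pomc, and under 6 summed UMIs of the endothelial genes Pecam1, Cdh5, Emcn, Plvap, Egfl7 and Kdr. This gave 164 members of 13663 barcodes: 158 fibroblasts and 6 pericytes.

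Fibroblasts lay down the collagens, proteoglycans and elastic fibres of a tissue and secrete factors that act on neighbouring cells. Pericytes are mural cells that sit within the basement membrane of capillaries, against the endothelium, and contact it through platelet-derived growth factor signalling, with the ligand made by endothelial cells and the receptor Pdgfrb on the pericyte. In the anterior pituitary the capillaries are fenestrated and carry hypothalamic factors in and hormones out, and both cell types lie along them.

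Library 1 held 60 fibroblasts among 6546 barcodes, 0.917% (exact binomial 95% interval 0.700 to 1.18). Library 2 held 98 among 7117, 1.38% (1.12 to 1.68), so the intervals of the pools overlapped only narrowly. Pericytes numbered 3 in each library, 0.0458% and 0.0422% of barcodes. Intervals cover counting error only, and the share of a cell type among captured cells also depends on how well the digestion released it. Fibroblasts held a median of 4062 UMIs (range 2736 to 16121) and pericytes a median of 3678 (2999 to 8442), against a median of 10128 and 10636 over all barcodes of library 1 and library 2. No deposited barcode held fewer than 2698 UMIs, so cells with less RNA than that are not represented. The libraries shared 54 barcode sequences, and 2 members were among them.

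The fibroblast rule met a nearly empty gap. Of 2080 barcodes with low hormone and endothelial counts, 1883 had none of the 5 fibroblast transcripts, 39 had 1 to 4 UMIs, 7 had 5 to 11 and 151 had 12 or more. Just outside the rule, 4 barcodes had 4 summed UMIs, and just inside it 2 had 5. The pericyte rule left out 5 barcodes with at least 3 Rgs5 UMIs and no Pdgfrb. Among these, a barcode of library 1 held 91 UMIs of Acta2 (smooth muscle actin), 10 of Myh11 (smooth muscle myosin) and 6 of Rgs5, and a barcode of library 2 held 45, 9 and 18. Both carried more Acta2 and Myh11 than any of the 6 pericytes, whose Acta2 ranged from 0 to 13 UMIs and Myh11 from 0 to 1. The hormone limits removed 34 other barcodes with 5 or more fibroblast UMIs, 14 of them with over 30% of UMIs from Gh, and the endothelial limit removed 9.

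**Figure D1:**
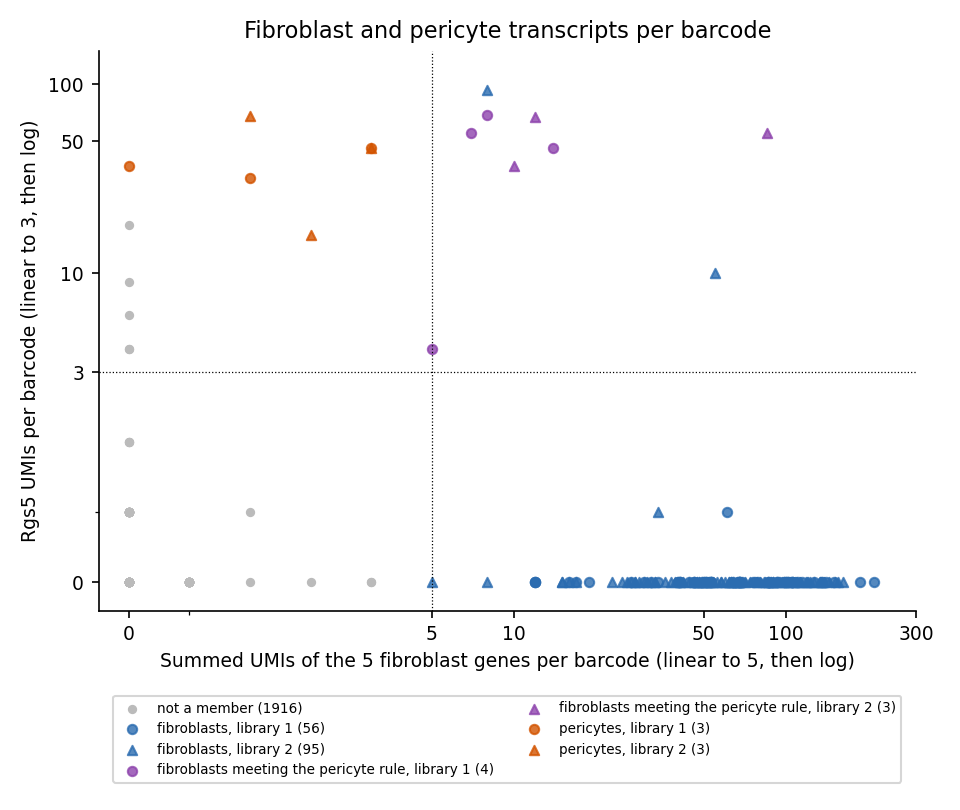
Rgs5 UMIs (vertical axis) against the summed UMIs of the 5 fibroblast genes (horizontal axis) for each barcode with low hormone and endothelial counts, circles for library 1 and triangles for library 2; both axes are linear near 0 and logarithmic above. Most fibroblasts lie along the bottom with no Rgs5, the 6 pericytes lie at the upper left with 16 to 68 Rgs5 UMIs, and 7 fibroblasts met both rules.

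Dcn encodes decorin, a small proteoglycan that binds collagen fibrils, and a fibroblast held 2 to 163 Dcn UMIs with a median of 37. Its level was 10609 CPM (UMIs per 1000000 UMIs of the class) in library 1 and 10282 in library 2, against 23.5 and 13.2 in endothelial cells. Endothelial barcodes were chosen with under 5 summed UMIs of the fibroblast genes, so this difference is partly set by the rules. Lum, the related proteoglycan lumican, was at 2145 and 1916 CPM in fibroblasts, yet 46 of 158 barcodes had none. Of the fibroblasts, 70.9% held Lum, 81.0% held Dpep1, a membrane dipeptidase, and 68.4% held Tcf21, a basic helix-loop-helix factor of mesenchymal progenitors. Col3a1, a fibrillar collagen, was present in 152 of 158, with a median of 5 UMIs. Rgs5, a regulator of G protein signalling, was at 7880 CPM in the pericytes of library 1 and 11287 in those of library 2, against 665 and 588 in fibroblasts. Rgs5 was absent from 147 of 158 fibroblasts, so its mean there came from 11 barcodes. Pdgfrb, by contrast, was found in 113 of 158 fibroblasts, at 422 ± 65.1 CPM (mean ± SD, n = 2), and in all 6 pericytes by rule.

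The 12 fibroblast markers outside the rule were unevenly present. Col1a1 and Col1a2, the chains of type I collagen, were present in 147 and 151 of 158 barcodes, and Pdgfra, the receptor tyrosine kinase that marks fibroblasts in many tissues, in 92. Dpt (dermatopontin), another gene listed as a fibroblast marker, was found in 3 of 158, with 1 UMI each. Pi16 was found in 17 of 158 and Mfap5 in 27, and Clec3b was at 11.4 and 42.5 CPM and Col6a3 at 60.8 and 42.5. For pericytes, Vtn (vitronectin), Ndufa4l2 (a subunit-like protein of the respiratory chain), Cox4i2 (a hypoxia-linked subunit of cytochrome oxidase) and Myl9 (a myosin light chain) were present in 6 of 6 barcodes. Higd1b was found in 5, and Kcnj8, the pore of an ATP-sensitive potassium channel, in 4. A pericyte barcode of library 1 with 8442 UMIs had 37 Rgs5 UMIs but 3 of Vtn, 0 of Higd1b and 0 of Kcnj8, so it met the rule with few of the other pericyte transcripts. This barcode held 8442 of the 14593 pericyte UMIs of library 1 and of the 26111 in both libraries, so summed pericyte levels lean on it. Macrophage, pituicyte and Schwann cell markers were at 0 in all 6 pericytes. Only 5606 of 28677 genes outside the rules had a UMI in these 6 barcodes, so a 0 is common. Among fibroblasts, a pair of barcodes in library 2 held 1784 of the 1802 Hbb-bs UMIs of the class, 992 and 792, and a pair held 1889 of the 2828 UMIs of Cga, the hormone subunit shared by gonadotropes and thyrotropes. Class levels of haemoglobin and Cga therefore describe these few barcodes, and whether they hold RNA from a second cell was not tested.

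The promoters of 3 genes that recur below are shown because their levels differ between cell classes. They are the contractile genes Myl9 and Acta2, and Inmt, an indolethylamine N-methyltransferase abundant in fibroblasts. Sequences are from RefSeq (GRCm38.p6) and run from 250 bases before to 50 bases after the start of the transcript, on the strand of the gene. Myl9 lies on the plus strand at chr2:156775214-156775513, Acta2 on the minus strand at chr19:34255324-34255623 and Inmt on the minus strand at chr6:55174941-55175240. Capitals mark a CArG box, the motif named for serum response factor, in Myl9, and TATAAA in Inmt, with both strands searched for each. Only exact matches to the consensus were searched. Acta2 held none and is in lower case throughout, and near matches with a changed letter were not searched.
Myl9: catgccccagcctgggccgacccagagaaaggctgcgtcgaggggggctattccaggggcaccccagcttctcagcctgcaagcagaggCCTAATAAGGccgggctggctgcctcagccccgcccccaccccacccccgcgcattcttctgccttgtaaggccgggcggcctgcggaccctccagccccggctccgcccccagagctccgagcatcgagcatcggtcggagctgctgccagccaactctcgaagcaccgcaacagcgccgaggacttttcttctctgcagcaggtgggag
Acta2: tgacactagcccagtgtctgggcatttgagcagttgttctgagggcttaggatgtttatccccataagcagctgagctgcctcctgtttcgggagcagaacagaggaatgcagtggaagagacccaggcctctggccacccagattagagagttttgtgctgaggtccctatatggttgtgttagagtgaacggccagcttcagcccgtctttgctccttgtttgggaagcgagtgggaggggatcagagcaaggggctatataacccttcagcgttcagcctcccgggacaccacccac
Inmt: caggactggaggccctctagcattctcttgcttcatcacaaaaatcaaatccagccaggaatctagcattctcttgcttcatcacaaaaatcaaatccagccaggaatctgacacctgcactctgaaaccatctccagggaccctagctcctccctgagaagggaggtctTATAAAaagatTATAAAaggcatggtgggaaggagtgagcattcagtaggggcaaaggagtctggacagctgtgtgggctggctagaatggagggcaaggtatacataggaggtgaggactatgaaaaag
The CArG box was found in 1.63% of 32851 mouse promoters of this length and in 1 of 12 contractile genes with a promoter in the table. Its match in Myl9 begins at position -161 relative to the start. TATAAA was found in 13.6% of all promoters, and Inmt held it at -80 and -69. A match is a string of letters, not a measured binding site.

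Fibroblasts were then compared with endothelial cells, the other non-hormone cells of the vessel bed, on 11575 genes with the genes of the membership rules left out. Endothelial cells were barcodes within the same hormone limits with 6 or more summed UMIs of the 6 endothelial genes, under 5 fibroblast UMIs and no match to the pericyte rule. Counts were summed per class and library, and 122 endothelial barcodes came from library 1 and 160 from library 2. EdgeR's quasi-likelihood test, with p-values adjusted by Benjamini-Hochberg and a threshold of 0.05, called 2973 genes, 25.7%: 1554 were higher in fibroblasts, 13.4% of those tested, and 1419 were lower, 12.3%. Because the classes were separated by their transcripts, these calls describe how far they differ and how well the 2 pools repeat it, and they are not evidence that the classes exist. The replicates are 2 pools of glands, so the spread is not that between single animals.

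The 5 genes with the highest fitted differences had no endothelial UMI, and over 0 counts such a fitted value depends on a prior count, so the order is not one of measured folds. Plac8, a small cysteine-rich protein, was at 601 and 432 CPM in the fibroblasts of library 1 and library 2, and Pdgfra at 240 and 273 CPM. Itih2, a heavy chain that binds hyaluronan, was at 293 and 277 CPM, Adh1, an alcohol dehydrogenase that also oxidises retinol, at 194 and 181, and Cemip, which takes part in breaking down hyaluronan, at 175 and 188. Against a floor of 3 counts over the endothelial class these are at least 96.9-fold higher (Cemip) to at least 261-fold higher (Plac8). At the other end, Fabp4, Ly6c1, Adgrl4, Icam2 and Aplnr had no UMI in 158 fibroblasts. Fabp4, a fatty acid carrier of capillary endothelium, reached 1444 ± 31.6 CPM (SD, n = 2) in endothelial cells and was at least 342-fold lower in fibroblasts. EdgeR adjusted p-values of these 10 genes ranged from 6.61e-29 for Fabp4 to 1.78e-14 for Adh1.

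All 11 interstitial collagen genes that could be tested were higher in fibroblasts, with a median log2 difference of 5.18 (genes with 0 UMIs taken at their bound) beside 0.01 over all genes. With DESeq2 10 of the 11 were called, and Col5a1 was not. Col1a1 was at 1278 and 1160 CPM in fibroblasts against 2.93 and 0 in endothelial cells, a log2 difference of 9.87 ± 0.28 (nominal SE, edgeR adjusted p = 2.96e-27). The ± of a log2 difference, here and below, is its size divided by the square root of the F statistic of the test. It does not cover the counting error of a class with few UMIs of the gene, such as endothelial cells here. Of 19 proteoglycan and fibre genes, 16 were higher and 0 lower, beside 13.4% and 12.3% of all genes tested. Mfap4, a microfibril-associated protein of elastic fibres, was at 2624 and 2692 CPM against 1.47 and 0 (log2 difference 11.98 ± 0.26, edgeR adjusted p = 1.85e-35). Ogn (osteoglycin), Fbn1 (fibrillin 1), Loxl1 and Lox (cross-linking oxidases) were also higher, with Lox at 0 in endothelial cells. Of 12 genes for matrix proteases and their inhibitors 10 were higher, among them Mmp2, Ctsk (cathepsin K) and Timp2, and 0 were lower.

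Basement membrane genes did not follow this pattern. Of 14 tested, 4 were higher in fibroblasts, 5 lower and 5 not called, where 13.4% of all genes were higher and 12.3% lower. Col4a1, the main collagen of basement membranes, was at 586 and 508 CPM in fibroblasts against 918 and 948 in endothelial cells (log2 difference -0.80 ± 0.11, edgeR adjusted p = 1.69e-07), and Hspg2 (perlecan) was lower as well. The laminin chain Lama2 was higher, at 274 and 275 CPM against 5.87 and 0. Sparc, a collagen chaperone of the extracellular space, was abundant in both, at 4191 and 3852 against 3769 and 3787 CPM, with a log2 difference of 0.08 ± 0.26 that did not pass the test (edgeR adjusted p = 0.893).

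**Figure D2:**
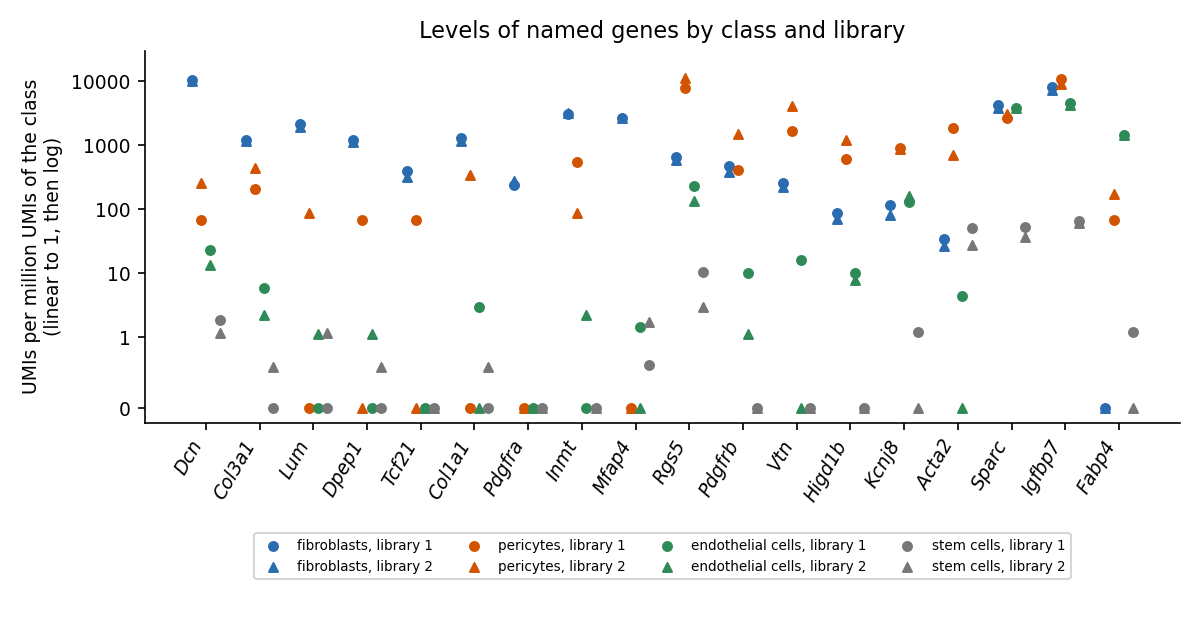
Level in CPM (vertical axis, linear to 1 and then logarithmic) of 18 genes in fibroblasts, pericytes, endothelial cells and stem cells, circles for library 1 and triangles for library 2. Inmt and Mfap4 lie between 2624 and 3213 in fibroblasts and at most at 2.21 in endothelial cells, whereas Sparc and Igfbp7 are high in fibroblasts, pericytes and endothelial cells.

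Secreted signals were also unevenly shared. Of 24 growth factor and cytokine genes tested, 16 were higher in fibroblasts and 2 were lower, beside 13.4% and 12.3% of all genes. Cxcl12, a chemokine that retains leukocytes and progenitors, was at 1236 and 1011 CPM against 11.7 and 34.2 (log2 difference 5.48 ± 0.24, edgeR adjusted p = 2.47e-09). Il33, a nuclear alarmin released on damage, was at 563 and 474 against 1.47 and 0 (9.60 ± 0.41, edgeR adjusted p = 1.35e-23). Bmp4 was at 160 and 139 CPM in fibroblasts and 1.47 and 5.52 in endothelial cells, and Igf1, Fgf10, Rspo3 and Pgf were higher too. Wnt5a and Fgf7, at 41.8 and 53.7 and at 26.6 and 17.9 CPM, had no endothelial UMI. Tgfb1 ran the other way, at 41.8 and 26.8 against 336 and 300.3 CPM.

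Among genes whose products bind growth factors, 9 of 14 were higher and 1 was lower, beside 13.4% and 12.3% of all genes. Igfbp2 and Igfbp3, both binding proteins of insulin-like growth factors, were placed in opposite cells. Igfbp2 was at 1453 and 1227 CPM in fibroblasts against 1.47 and 18.8 in endothelial cells, while Igfbp3 was at 22.8 and 8.94 against 4788 and 4848. The call of Igfbp2 was lost in a fit with fibroblasts and endothelial cells alone, and that of Igfbp3 was not.

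Of 21 surface receptor genes tested, 12 were higher and 4 lower, where 13.4% of all genes were higher and 12.3% lower. The lysophosphatidic acid receptor Lpar1 was at 217 and 208 CPM and the sphingosine phosphate receptor S1pr3 at 228 and 130, with 1 UMI and 2 UMIs in the whole endothelial class, which instead had S1pr1 (113 and 97.2 CPM against 15.2 and 15.7 in fibroblasts). Ghr, the growth hormone receptor, was at 122 and 69.3 CPM against 23.5 and 24.3 (log2 difference 1.91 ± 0.34, edgeR adjusted p = 1.47e-05). Of 10 nuclear receptor genes, 5 were higher and 0 lower. Nr2f2 (COUP-TFII) was at 605 and 519 CPM against 192 and 181.

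Of 21 mesenchymal transcription factor genes, 13 were higher and 3 lower, beside 13.4% and 12.3% of all genes, so the lower ones are near that share. Foxd1, known from stromal progenitors of the kidney, was at 175 and 177 CPM against 0 and 1.10 (log2 difference 8.07 ± 0.66, edgeR adjusted p = 9.50e-14). Foxc1 was at 152 and 118 CPM, and Twist1 and Foxc2 had no endothelial UMI. The genes lower in fibroblasts were Mef2c, Meox1 and Klf4, and Klf4 lost its call without the replicate block and with totals that left out Gh, Prl and Pomc.

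Of 12 tested genes listed for retinoic acid handling or response, 8 were higher in fibroblasts and 1 lower, beside 13.4% and 12.3% of all genes. Rarres2 (chemerin) was at 951 and 816 CPM against 17.6 and 3.31 (log2 difference 6.52 ± 0.24, edgeR adjusted p = 8.15e-26). Aldh1a1, which makes retinoic acid, was at 87.5 and 118 CPM against 1.47 and 2.21. The enzyme that degrades retinoic acid, Cyp26b1, had 0 UMIs in fibroblasts and was at 120 and 149 CPM in endothelial cells. Of 10 listed complement genes 5 had counts enough to be tested, and these 5 were higher, among them the inhibitor Serping1 (1411 and 1366 CPM against 8.80 and 1.10). With no filter on low counts 5 of 9 were higher and 0 lower.

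Of 11 contractile genes, 8 were higher and 1, Smtn, lower, where 13.4% of all genes were higher and 12.3% lower. Tagln (transgelin) was at 772 and 626 CPM in fibroblasts against 4.40 and 2.21, and Myl9 at 1380 and 1049 against 24.9 and 8.83. Acta2 was at 34.2 and 26.8 CPM only, and its call was lost when barcodes that met both rules were left out. Of 14 pericyte markers, 9 were higher in fibroblasts than in endothelial cells and 1 lower. Without the 7 barcodes that met both rules 6 of 13 were higher and 3 lower, and Higd1b and Gja4 also lost their call.

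Of 14 immediate early and heat shock genes, which tissue dissociation can induce, 7 were lower in fibroblasts and 1 was higher. Over all genes tested 12.3% were lower and 13.4% higher. With no filter on low counts 6 of the 14 were lower and 3 higher. Atf3 was at 60.8 and 96.1 CPM against 571 and 782 (log2 difference -3.07 ± 0.15, edgeR adjusted p = 8.74e-22). Fos ran the other way, at 1110 and 1976 CPM against 524 and 753. The calls of Fos and Jun were lost without the replicate block. Jun also lost its call with no filter on low counts, and Jun and Hspa1a did in the fit of fibroblasts and endothelial cells alone. The summed level of these 14 genes was 0.651% of fibroblast UMIs in library 1 and 1.15% in library 2, so the pools differed here, against 1.82% and 1.88% in endothelial cells. The part of the digestion in these levels was not tested.

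A second comparison, with the pituitary stem cells, was added after the data were seen. Stem cells were low-hormone barcodes with at least 5 summed UMIs of Cyp2f2, Aldh3a1, Aqp3 and Cldn7. They also had under 6 summed UMIs of the endothelial genes and under 6 of C1qa, C1qb, C1qc, Csf1r, Tyrobp and Fcer1g. No member could be a stem cell, so barcodes with 5 or more fibroblast UMIs were left out of this class. The same test called 29% of 11575 genes: 1741 were higher in fibroblasts, 15%, and 1611 lower, 13.9%. Inmt, Col6a1, Plac8 and Matn2 had no UMI in 300 stem cell barcodes. Inmt was at 3130 and 3213 CPM in fibroblasts and at least 3551-fold higher (edgeR adjusted p = 2.83e-38). All 19 proteoglycan and fibre genes tested were higher than in stem cells, and so were 10 of 14 basement membrane genes, with Col4a1 at a log2 difference of 3.41 ± 0.14 (edgeR adjusted p = 2.17e-24). Aldh1a2, which makes retinoic acid in many embryonic tissues, was lower in fibroblasts, at 11.4 and 11.2 CPM against 575 and 564 (edgeR adjusted p = 0.0045). Isl1, a homeobox factor, and Apln, the peptide ligand apelin, were lower too, with 1 UMI each in fibroblasts. Of the 14 immediate early genes 5 were lower and 0 higher.

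The 6 pericytes held 26111 UMIs between them, too few for the test across genes, so fibroblasts and pericytes were compared by size alone. A gene counted as different if its pooled CPM differed at least 4-fold, in the same direction in both libraries, with enough UMIs for such a difference to be seen. Of 513 genes within reach, 33 were higher in pericytes (6.43%) and 39 were lower (7.6%). No p-value goes with these counts. A gene comes within reach mostly through the class where it is high, so the counts are a description. The same rule on 1 library alone gave 21 higher and 23 lower genes in each, of 279 within reach in library 1 and 208 in library 2. A stricter rule of 10 fibroblast or 6 Rgs5 UMIs gave 50 and 51 of 661 within reach. It left 5 pericytes in library 1 and 3 in library 2.

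All 14 listed pericyte markers had a UMI in pericytes, beside 5606 of all 28677 genes outside the rules. Of the 14, 7 had the 10 UMIs needed to be within reach. These 7 entered through their pericyte level, so that they passed the size rule is no support for the label. Abcc9, with 8 UMIs, Notch3, with 7, and Anpep, with 1, were among the other 7. Vtn was at 1645 and 4081 CPM in the pericytes of library 1 and library 2 against 255 and 226 in fibroblasts, an 11.5-fold difference of the pooled levels. The 6 barcodes held 20, 3 and 1 Vtn UMIs in library 1 and 4, 27 and 16 in library 2, so every pericyte had Vtn but the amounts spread widely. Higd1b was 11.6-fold higher, Ndufa4l2 10.6-fold, Kcnj8 9.34-fold, Cox4i2 9.24-fold, and Gja4, a connexin of vessel walls, 9.33-fold. Art3 was 10.5-fold higher and was found in 3 barcodes.

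Among the other genes higher in pericytes, Acta2 showed a 45.3-fold difference, at 1850 and 695 CPM against 34.2 and 26.8, with 2, 12 and 13 UMIs in the barcodes of library 1 and 0, 0 and 8 in those of library 2. Its pooled pericyte level was 1340 CPM (exact Poisson 95% interval 934 to 1864, counting error only). Of 15 listed contractile genes 8 were within reach, and Acta2 and Mustn1 passed the size rule. Myl9 was at 4112 and 3994 CPM against 1380 and 1049 and did not reach 4-fold. Ano1, a calcium-activated chloride channel, was 33.2-fold higher, Pde4d, a cyclic AMP phosphodiesterase, 27.2-fold, Rgs4, a relative of Rgs5, 18.1-fold, and Gucy1b3, a subunit of the nitric oxide receptor guanylate cyclase, 8.42-fold. Sncg (gamma synuclein) was 24.2-fold higher, Pcp4l1 21.5-fold, Serpini1, a serine protease inhibitor, 18.1-fold, Ptp4a3, a phosphatase, 16.8-fold, Tppp3 16.1-fold and Aspn (asporin), a small matrix proteoglycan, 12.2-fold. Ptp4a3 had 23 pericyte UMIs in library 1 and 3 in library 2, over 3 barcodes. Esam, an adhesion molecule that is also an endothelial marker, was 29.9-fold higher, with 11 UMIs over 4 barcodes. Of the 8 listed endothelial markers, 4 had pericyte UMIs: Esam, Eng with 6, Cd34 with 2 and Vwf with 1, while Cldn5, Flt1, Tie1 and Tek had 0. The summed UMIs of the 6 endothelial rule genes were 4 and 5 in 2 pericytes of library 2 and 0 or 1 in the other 4. The part of endothelial RNA in these levels was not tested. Ccl11, the chemokine eotaxin, was 6.20-fold higher, carried by 3 of 6 barcodes.

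Of the 39 genes lower in pericytes, Apod, an apolipoprotein of the lipocalin family, was at 0 and 174 CPM in pericytes against 3289 and 3092 in fibroblasts, and its pericyte level rests on 2 UMIs in 1 barcode. Itih5 was at 2867 and 2453 CPM in fibroblasts and Apoe, the lipid carrier apolipoprotein E, at 2289 and 2468, with 2 and 3 pericyte UMIs. Mfap4 had no pericyte UMI and was at least 23.2-fold lower, and Olfml3, Igfbp2, Islr, Efemp1, Ogn, Cldn11 and Il33 had none either. Col1a1 was 7.86-fold lower, Col1a2 5.86-fold and Serping1 4.51-fold. These 3 of 12 listed fibroblast markers came within reach through their fibroblast level, and 8 of the 12 had no pericyte UMI. Only 5606 of all 28677 genes outside the rules had a pericyte UMI, so the 8 are no result about these markers. Inmt was 9.23-fold lower, with 8 UMIs in library 1, 7 of them in 1 barcode, and 1 in library 2. Pdgfra had no pericyte UMI, but at its fibroblast level the pericytes were too shallow to show a 4-fold difference. Cga, Lhb, Hba-a1 and Hba-a2 are also among the 39, and their fibroblast level came from the few barcodes named above. None of 9 immediate early and heat shock genes within reach passed the rule. Of all 513 genes within reach, 6.43% were higher and 7.6% lower, so for 9 genes this is near the share over all genes. Igfbp7, a secreted protein of vessel walls, was at 10964 and 9203 CPM in pericytes against 8088 and 7358 in fibroblasts, and Sparc at 2673 and 3126 against 4191 and 3852.

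**Figure D3:**
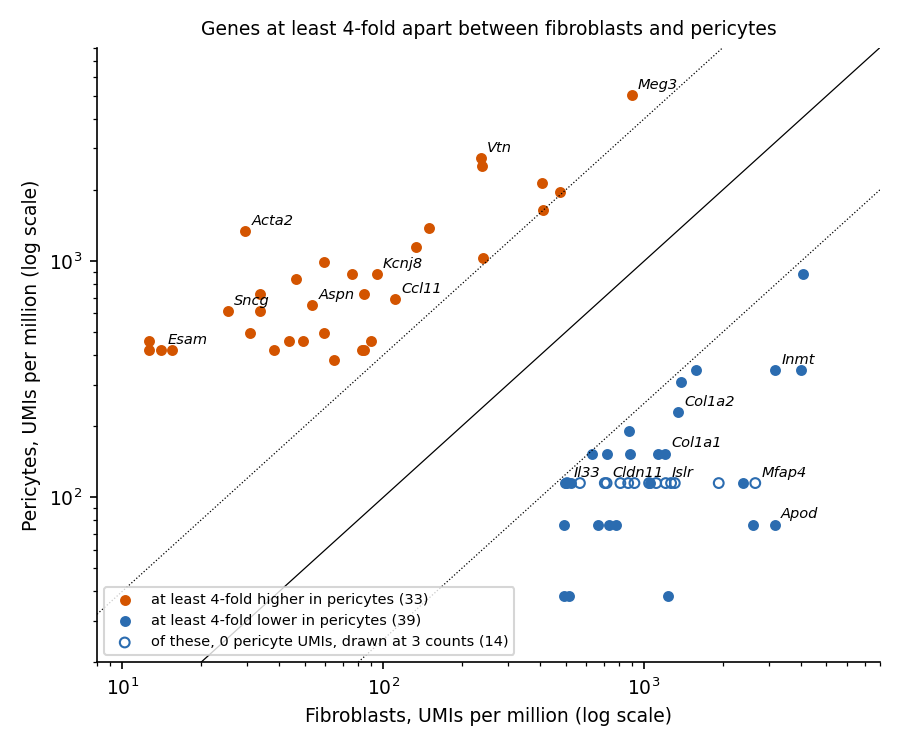
Pooled level in pericytes (vertical axis) against pooled level in fibroblasts (horizontal axis), both in CPM on log axes, for the 72 genes at least 4-fold apart; the solid line marks equal levels, the dotted lines 4-fold, and open circles stand for genes with 0 pericyte UMIs drawn at 3 counts. The 33 genes higher in pericytes include Acta2 and Vtn, and the 39 lower ones include Apod, Mfap4 and Inmt.

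The boundary between the classes ran through 7 barcodes that met both rules and were counted as fibroblasts. In 5 of them the fibroblast sum was 7 to 14 UMIs while Rgs5 was 37 to 69, Vtn 6 to 32 and Kcnj8 4 to 10, values in the range of the 6 pericytes or above it. The sixth, in library 1, had 4 Rgs5 UMIs and a fibroblast sum of 5. The last, in library 2, had 55 Rgs5 and 14 Vtn UMIs along with 62 Dcn, 10 Dpep1 and 34 Apod, a mixed profile, and whether it stems from 2 cells was not tested. A further fibroblast of library 2 had 93 Rgs5 and 18 Vtn UMIs with no Pdgfrb and a fibroblast sum of 8. The choice of rule order therefore sets the pericyte number. With all 13 barcodes that met the pericyte rule taken as pericytes, 7 in library 1 and 6 in library 2, the size rule called 83 genes higher and 60 lower of 1053 within reach. These included 32 of the 33 and 27 of the 39 genes called with 6 pericytes. Higd1b was then 111.1-fold higher, Kcnj8 45.1-fold and Acta2 107-fold, while Abcc9, Cspg4 and Notch3, further pericyte markers, passed at 55.8-fold, 55.8-fold and 19.3-fold. Fibroblast levels fell without the 7 barcodes: Higd1b from 76.0 to 11.7 CPM, Kcnj8 from 94.3 to 29.3 and Acta2 from 29.6 to 8.78. Pericyte levels of Higd1b and Kcnj8 rose from 881 to 1300 and 1319 CPM, while that of Acta2 fell from 1340 to 942. Fibroblasts held Cspg4 at 4.39 CPM and Abcc9 at 8.78, so those folds rest on few UMIs. These genes too came within reach through their pericyte level, so passing is no support for the label.

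Fibroblasts differed among themselves, here described over the 151 that did not meet the pericyte rule and with no test, since the genes were picked for their pattern. Cldn11, a tight junction protein also known from arachnoid barrier and myelin, was absent from 53 barcodes and had 3 or more UMIs in 71. Depth was alike, with a median of 4129 UMIs without Cldn11 and 4175 with it. Inmt was at 1689 and 1782 CPM in barcodes of library 1 and library 2 without Cldn11, and at 4426 and 4221 with it. Gpc3, a glypican that binds growth factors, was at 143 and 138 against 490 and 453, and Nr2f2 at 315 and 373 against 952 and 645. The opposite held for Ccl11, at 229 and 283 CPM without Cldn11 against 0 and 9.16 with it, for Igf1, at 215 and 181 against 18.1 and 32.04, and for Spry1, a feedback inhibitor of receptor tyrosine kinases, at 272 and 132 against 0 and 27.5. Col4a1 was also higher without Cldn11, at 830 and 903 CPM against 281 and 201, and Col15a1 at 544 and 421 against 181 and 156. Spp1 (osteopontin) was at 4922 and 771 against 136 and 169, a difference that varied between pools, and Dcn was at 15211 and 10276 against 9496 and 9956. In library 1, 185 of the 367 Spp1 UMIs of all fibroblasts lay in 2 barcodes.

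**Figure D4:**
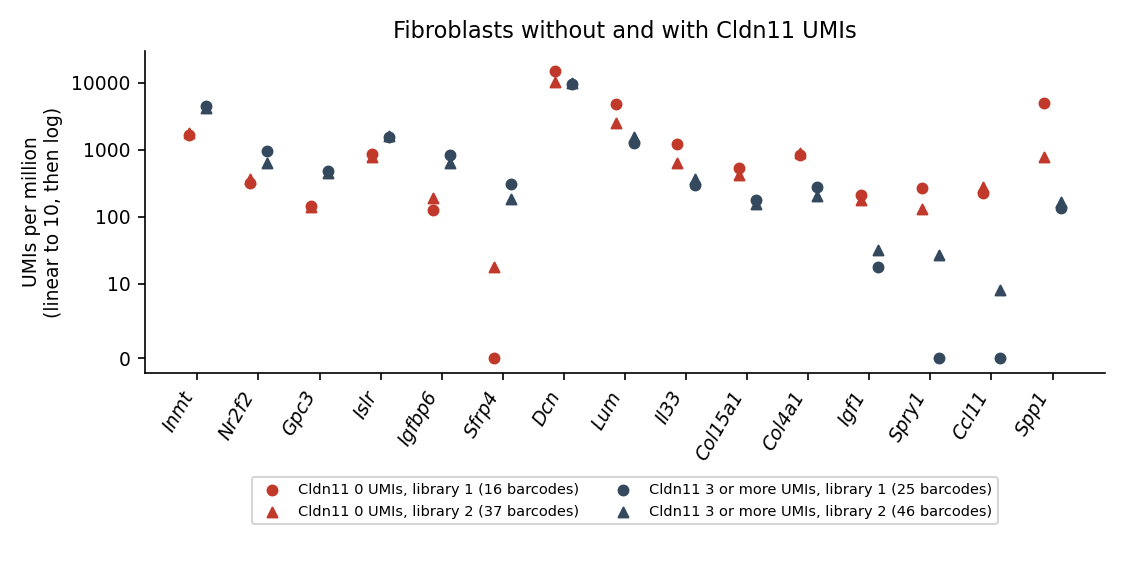
Level in CPM (vertical axis, linear to 10 and then logarithmic) of 15 genes in fibroblasts without Cldn11 and with 3 or more Cldn11 UMIs, circles for library 1 and triangles for library 2. Inmt, Nr2f2 and Gpc3 are higher with Cldn11 in both libraries, and Col4a1, Igf1 and Ccl11 are higher without it.

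A smaller set was marked by Mfap5, a microfibril protein, found in 27 of 151 barcodes, 9 in library 1 and 18 in library 2. Igfbp6 was at 2123 and 1476 CPM there against 152 and 169 in the remaining 124, Sfrp4, a secreted Wnt antagonist, at 829 and 590 against 9.51 and 25.7, and Foxd1, the forkhead factor named above, at 440 and 307 against 138 and 149. Igfbp6 was present in 9 of 9 and 15 of 18 of the Mfap5 barcodes, but Sfrp4 in 3 and 5. In library 1, 30 of the 34 Sfrp4 UMIs of all fibroblasts lay in 2 barcodes, and in library 2 36 of 59 did. Tfap2b ran the other way, at 0 and 47.2 against 204 and 94.4. Across the 151 barcodes, on log-scaled levels, Cldn11 correlated with Inmt at r = 0.44 and with Spry1 at r = -0.51, and Mfap5 with Igfbp6 at r = 0.56. Genes of 1 barcode share its depth and its library, so these are descriptions.

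On the t-SNE map that the authors deposited, 153 of 164 members, all 6 pericytes included, lay in a single island with 19 other barcodes, of which 1 was endothelial. All 11 members outside it were fibroblasts, 4 of library 1 and 7 of library 2, with a median fibroblast sum of 17 UMIs against 62 inside. A tight group of 5 lay together, apart from the rest. They held 1 to 7 UMIs of the proliferation gene Mki67, and no other fibroblast held any. They also had 12 to 71 UMIs of Stmn1 (stathmin) and 14 to 38 of Hmgb2, along with 11 to 76 of Dcn. These are 2 barcodes of library 1 and 3 of library 2. The remaining 6 were scattered among other cells, with fibroblast sums of 5 to 19, and 1 of these held the 1174 Cga UMIs.

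**Figure D5:**
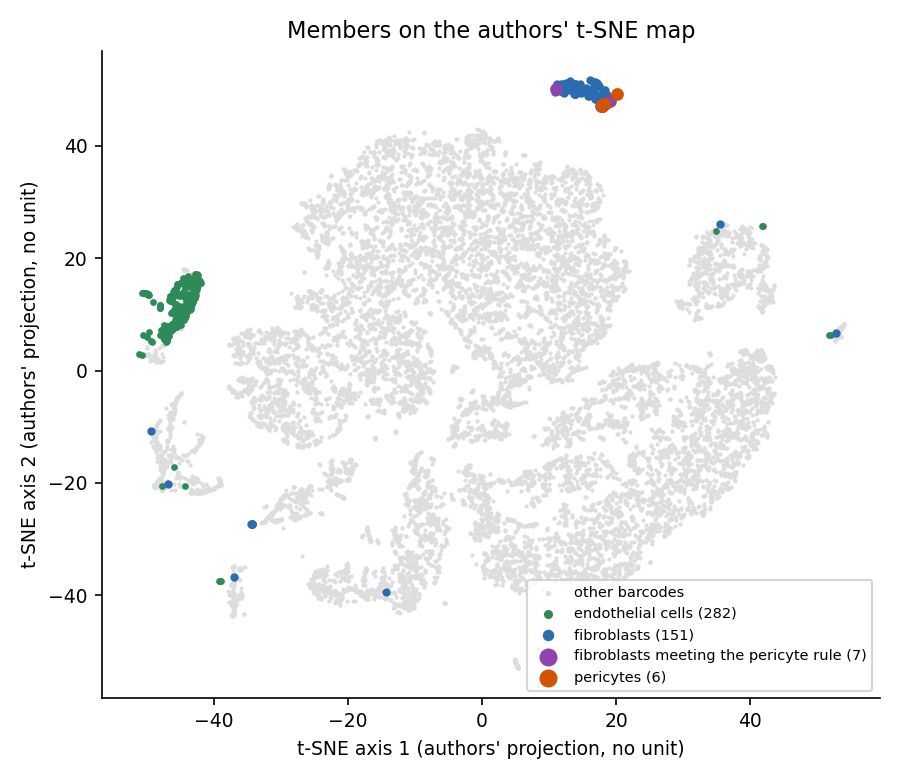
The authors' t-SNE projection of all barcodes (both axes without unit), with endothelial cells in green, fibroblasts in blue, fibroblasts that met both rules in purple and pericytes in orange. The main island of fibroblasts at the top holds 153 of 164 members, with the pericytes at its right edge, and the 5 fibroblasts with Mki67 coincide at the left.

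Shares of fibroblasts with a transcript depend on depth, so each barcode was also thinned to 1000 UMIs. Inmt was then found in 80.0% of fibroblasts in library 1 and 75.5% in library 2 (86.7% and 85.7% unthinned), against 0 of 122 and 0 of 160 endothelial barcodes, and 0 of 250 somatotropes in each library. Cldn11 was found in 43.3% and 36.7% thinned, against 0% in endothelial cells and 0.400% in the somatotropes of either library. Dcn was in 98.3% and 98.0%, against 1.64% and 2.50% in endothelial cells and 0.800% and 0% in somatotropes. Somatotropes were barcodes with at least 30% of UMIs from Gh and, like endothelial cells, under 5 summed UMIs of the fibroblast genes. As Dcn is one of these genes, its low share in both classes is partly set by the rules. Median depth before thinning was 3945 and 4161 UMIs in fibroblasts, 4538 and 4292 in endothelial cells and 13245 and 13329 in the somatotropes drawn. Rgs5 was in 6.67% and 5.10% of fibroblasts, and in 9.84% and 6.25% of endothelial cells. Barcodes that met the pericyte rule were left out of the endothelial class but kept among fibroblasts, so these shares depend on the rules. Gh was found in every fibroblast and pericyte, at a median of 1.05% and 1.62% of UMIs, and its source was not tested.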

How the data were processed

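The deposited matrix holds the authors' raw UMI counts for 28693 genes and 13663 barcodes. Cell Ranger, STAR and mm10 are named in the submitters' processing notes, without versions. The deposited t-SNE positions, used as scores without a unit, are the authors' too. A barcode's suffix was read as its pool. Members, gene lists and comparisons were chosen with earlier results of these data known. Counts were added up by class and pool for fibroblasts, endothelial cells, macrophages, stem cells, somatotropes and lactotropes. These 12 columns were tested in edgeR 4.0.16 (R 4.3.3) with robust quasi-likelihood fits, TMM scaling, filterByExpr on class, and the pool as a block, since each pool gave every class. The fit had 5 residual degrees of freedom, and the 26 genes of the class rules were left out. On simulated counts for fibroblasts against endothelial cells, 95.5% of 200 genes changed 4-fold were recovered among 11460 tested, and 2.55% of calls were false. Every gene was drawn with the common dispersion of the same fit (coefficient of variation 0.0655), and only genes expected at over 10 counts were changed. These shares therefore check the procedure and do not estimate false calls in the data. The planned fit with pericytes needed 10 barcodes per pool and could not be made. A size rule replaced it, chosen after seeing the data: at least 4-fold, with at least 10 pericyte UMIs, or a fibroblast level at least 4 times that of 3 pericyte UMIs. Named genes are the 5 highest and 5 lowest log2 differences past the test that went one way in both pools, with at least 100 CPM on the higher side, without predicted, immunoglobulin and haemoglobin genes, plus members of the lists, and for pericytes the 12 highest and 12 lowest by size. Gucy1b3, Ccl11, other genes past the size rule and those that vary within fibroblasts were chosen after their values were seen. Genes at 0 UMIs were given folds against 3 counts over the class, and the size rule took any level under 3 counts at 3 counts. No doublet caller was run. For thinning, 250 somatotropes per pool were drawn at random. DESeq2 1.42.0 and the other alternatives are in the closing section. Some genes that the naming rule would name are not reported here.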

Additional observations from a re-analysis of the deposited data

How the results depend on the processing

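The 1554 higher and 1419 lower genes between fibroblasts and endothelial cells stayed within 1.5 times under the alternatives run. They were 1567 and 1141 with DESeq2, 1365 and 1251 of 7135 tested with only these classes in the fit, 1567 and 1419 without the replicate block (the libraries as pairs), and 1565 and 1389 with no filter on low counts. The common biological coefficient of variation was 0.0655 over 6 classes and 0.135 in the fit of these 2 classes, so p-values of the shared fit may be too small for small classes. Of 144 list genes called with UMIs in both classes, 144 kept their direction without replicate 1 and without replicate 2, and 138 stayed called without the replicate block.

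Between fibroblasts and pericytes, 33 genes were higher and 39 lower of 513 within reach. The counts became 50 and 51 of 661 with the stricter membership threshold and 83 and 60 of 1053 with 13 pericytes. They were 21 and 23 of 208 without replicate 1 and of 279 without replicate 2. Since the number of genes within reach changed with the setting, these counts are not directly comparable. The pericyte share moved from 0.0440% to 0.0593% of barcodes with the stricter threshold, and was 0.0422% and 0.0458% in the libraries taken alone. Fibroblast shares were 0.917% to 1.38% with 1 library left out.

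Log2 differences, pericytes over fibroblasts, moved as follows. Without the barcodes that met both rules Acta2 went from 5.50 to 7.25, Higd1b from 3.53 to 6.23 and Kcnj8 from 3.22 to 4.91. With 13 pericytes Acta2 was 6.75, Higd1b 6.80, Kcnj8 5.49 and Col1a2 -1.60, against -2.55. With the stricter threshold Kcnj8 was 3.93 and Col1a2 -1.86. With 1 library left out Acta2 ranged from 4.69 to 5.76, Vtn from 2.69 to 4.18, Higd1b from 2.82 to 4.13, Kcnj8 from 2.92 to 3.43, Inmt from -5.21 to -2.51 and Col1a2 from -2.85 to -2.28.

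Shares of fibroblasts with a UMI rose without thinning, for Dcn from 98.1% to 100%, Lum from 52.2% to 70.7%, Tcf21 from 29.6% to 69.3%, Inmt from 77.8% to 86.2% and Cldn11 from 40.0% to 62.9%. With 1 library left out the thinned share was 98.0% to 98.3% for Dcn, 48.3% to 56.1% for Lum, 27.6% to 31.7% for Tcf21, 75.5% to 80.0% for Inmt and 36.7% to 43.3% for Cldn11. The planned tests of pericytes against fibroblasts and against endothelial cells, and their alternatives, were not run, since each library held 3 pericytes. Depth limits pericytes most: 3 counts over the class equal 115 CPM.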
